A study of Mus musculus with 9 samples.

Results

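Expression of 10 mouse genes of the tight junction was followed across 9 microarrays of prostate lesions: the claudins Cldn1, Cldn3, Cldn4, Cldn7, Cldn8 and Cldn10, occludin (Ocln), the junctional adhesion molecule F11r, and the scaffold proteins Tjp1 and Tjp3. Each was read from probe sets that list exactly that 1 symbol, keeping the brightest by mean log2 intensity over the 9 arrays, and each had 1 such probe set. They are 10 of 22180 genes named in this way. After the dimmest 25% of genes by mean signal were left out, 9 of the 10 were among the 16635 genes tested, and Cldn8, with a mean log2 intensity of 3.02 against a filter of 3.25, was not. The genes were chosen by family, with their differences in log2 intensity between these tumours and HG-PIN already known, so their levels and changes in tumours are given as a description and are no independent evidence about the list.

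Tight junctions are the belts of contact that seal neighbouring epithelial cells together near their apical side. Claudins are tetraspan membrane proteins that polymerise into the sealing strands and decide which ions and molecules pass between cells, occludin and the junctional adhesion molecules accompany them in the membrane, and scaffold proteins with PDZ domains tie the strands to the actin cytoskeleton. In the prostate these junctions separate the secretions of the luminal cells from the tissue beneath.

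The captures came from 12-month-old male mice of mixed strain, and epithelial lesions were cut by laser from fixed, paraffin-embedded sections with a pathologist's reading as the guide. Poorly differentiated adenocarcinoma of T-3Mb-Erg mice (3 arrays), high-grade prostatic intraepithelial neoplasia (HG-PIN, dysplastic cells within the gland) of T-3Mb-Erg mice (3 arrays) and HG-PIN of control mice (3 arrays) were profiled on the Affymetrix Mouse Gene 2.0 ST array. T-3Mb-Erg is an engineered allele, present on 1 chromosome (T-3Mb-Erg/+), that brings Erg next to Tmprss2 and lacks the genes between them, and control mice do not carry it. Each of 3 T-3Mb-Erg mice gave both a tumour and an HG-PIN capture under 1 replicate number, and 3 other mice gave control HG-PIN, which makes 6 mice. All mice of both genotypes carried PbCre, a Cre recombinase under the probasin promoter, which is active in prostate epithelium. Their genotypes are not described further here, and HG-PIN of control mice is not normal tissue. No control tumour was among the groups, so a comparison of tumours with control HG-PIN joins lesion and genotype.

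The range of the arrays, taken as the 95th percentile of log2 intensity, was 6.15 to 6.65, and it was lowest in tumour replicate 2 (6.15) and control HG-PIN replicate 2 (6.16). These arrays also stood apart from their groups. Correlations over all tested genes were 0.70 and 0.76 for the tumour array and 0.76 and 0.77 for the control array. The other pairs of a group reached 0.80 to 0.91. Erg was listed at log2 intensities of 4.19, 4.54 and 4.83 in tumours, 3.68, 4.30 and 3.89 in T-3Mb-Erg HG-PIN, against 3.68, 4.22 and 3.75 in control HG-PIN, so it did not separate the HG-PIN of the genotypes and the genotype rests on the labels. As a gauge of dim signal, the 95th percentile of the mean log2 intensity of 1390 olfactory and vomeronasal receptor genes was 4.81 (the receptor level), and 27.9% of the tested genes lay above it. Erg lay below it in every array but tumour replicate 3 (4.83), so dim signal limits what Erg can show of the genotype. The precision is set by the number of arrays: over all tested genes, 95% intervals of the log2 change reached a median of 0.59 to either side.

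The label of an epithelial lesion was set against lineage markers. Of 9 luminal markers, 5 lay above the receptor level in tumours, 7 in T-3Mb-Erg HG-PIN, against 7 in control HG-PIN, and their summed intensity was 270 to 834, 1351 to 3243 and 845 to 3037 in these groups. The luminal markers not above it in tumours were Hoxb13, Foxa1, Pax8 and Prom1, and in both HG-PIN groups Hoxb13 and Pax8. Basal markers above it were 2, 4 and 3 of 8, with sums of 221 to 249, 643 to 730 and 245 to 342. Of 12 fibroblast markers, 8, 5 and 2 lay above it, with sums of 552 to 3529 in tumours, 308 to 703 in T-3Mb-Erg HG-PIN, against 252 to 273 in control HG-PIN. In tumours minus T-3Mb-Erg HG-PIN, all 9 luminal markers were negative (median log2 change -1.16), and 2 passed an adjusted p of 0.05 in limma. Of 8 basal markers 7 were negative (median -0.38), and 1 passed. All 11 tested fibroblast markers were positive (median 1.38), and 0 passed. Of all tested genes, 51.1% were negative and 0.216% passed as lower. Seminal vesicle markers, secretory genes of the neighbouring gland, were above it for 0, 4 and 3 of 6, with sums of 40.9 to 625 in tumours, 509 to 6439 in T-3Mb-Erg HG-PIN, against 77.6 to 2737 in control HG-PIN, and their median log2 change of tumour minus T-3Mb-Erg HG-PIN was -1.99, with 4 of the 6 negative. Smooth muscle markers were above it for 4, 6 and 4 of 8, with sums of 190 to 642 in tumours, 264 to 1405 in T-3Mb-Erg HG-PIN, against 214 to 282 in control HG-PIN, and 7 of the 8 were lower in tumours than in T-3Mb-Erg HG-PIN (median -0.90). In these bulk captures, fewer junction-bearing cells and less junction RNA per cell cannot be told apart, and the part of the luminal, basal, fibroblast, seminal vesicle and smooth muscle markers in the results was not tested.

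The start regions of 5 of the genes are shown because 4 of them, Cldn4, Cldn3, Cldn7 and Tjp3, are those whose tumour and T-3Mb-Erg HG-PIN values did not overlap among the tested genes, and Cldn1 is the gene with the flattest levels. Each line holds the 250 bases before a RefSeq start, 5′ to 3′ in the direction of the gene, on GRCm38.p6, and capitals mark the E-box CAGGTG in either orientation (CAGGTG or CACCTG), the site class that Snail, Slug and Zeb repressors are known to bind in junction genes. The windows are chr5:134946935-134947184 on the minus strand for Cldn4, chr5:134985964-134986213 on the plus strand for Cldn3, chr11:69965171-69965420 on the plus strand for the second listed start of Cldn7, chr10:81291268-81291517 on the minus strand for the second listed start of Tjp3, and chr16:26371840-26372089 on the minus strand for Cldn1.
Cldn4: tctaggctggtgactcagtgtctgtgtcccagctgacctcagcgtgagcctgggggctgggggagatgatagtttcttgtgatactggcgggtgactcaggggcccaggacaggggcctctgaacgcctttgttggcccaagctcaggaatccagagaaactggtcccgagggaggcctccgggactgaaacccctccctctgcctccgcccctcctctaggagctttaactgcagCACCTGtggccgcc
Cldn3: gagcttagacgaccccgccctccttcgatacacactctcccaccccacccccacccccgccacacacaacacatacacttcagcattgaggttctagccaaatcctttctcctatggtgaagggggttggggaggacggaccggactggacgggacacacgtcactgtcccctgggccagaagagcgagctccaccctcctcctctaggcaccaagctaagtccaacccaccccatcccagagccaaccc
Cldn7: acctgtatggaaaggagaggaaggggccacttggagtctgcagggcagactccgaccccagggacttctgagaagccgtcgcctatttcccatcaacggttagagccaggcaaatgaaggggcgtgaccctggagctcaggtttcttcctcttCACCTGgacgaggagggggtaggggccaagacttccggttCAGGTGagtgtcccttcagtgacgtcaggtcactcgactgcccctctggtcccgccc
Tjp3: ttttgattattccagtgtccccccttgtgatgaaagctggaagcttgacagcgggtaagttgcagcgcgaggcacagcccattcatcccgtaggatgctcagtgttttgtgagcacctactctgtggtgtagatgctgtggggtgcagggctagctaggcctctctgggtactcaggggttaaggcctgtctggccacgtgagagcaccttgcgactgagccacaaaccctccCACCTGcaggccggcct
Cldn1: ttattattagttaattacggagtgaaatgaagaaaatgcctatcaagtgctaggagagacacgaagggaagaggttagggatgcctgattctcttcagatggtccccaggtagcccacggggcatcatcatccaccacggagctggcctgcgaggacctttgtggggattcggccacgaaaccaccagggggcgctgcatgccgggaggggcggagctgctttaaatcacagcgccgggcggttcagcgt

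The Cldn4 window ends in a CACCTG whose first base lies 14 bases before the start (offset -14), and the Tjp3 window has 1 at -17. The Cldn7 window has CACCTG at -97 and CAGGTG at -57, while its other listed start has none in the window searched. Over 300 bases, from 250 before to 50 after the start, this E-box was found on either strand in 8 of 13 listed promoters of the genes and in 6 of the 9 genes with a promoter in the table (Cldn3, Cldn4, Cldn7, Ocln, Tjp3 and F11r). The windows of the 2 Ocln promoters overlap, and the E-box of the first (offset 8) is the same site as the one at -213 of the second, so that the 8 promoters are not all separate. It was not found in the windows of Cldn1, Cldn10 and Tjp1. Among all 32851 promoters of the table, 20.2% held it. The GC box GGGCGG was in 9 of the 13 promoters and in 35.7% of all, and the ETS-type motif CCGGAAG was in 2 of the 13, both of Cldn7, and in 8.9% of all. The Grainyhead-type motif AACCNGTT was in 0 of the 13 and in 2.1% of all, on either strand in each case. Within a window no match of these motifs overlapped another, and a match is a description of the sequence and not a bound site.

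Cldn4 was the gene of the list that differed most between lesions. Cldn4 encodes a barrier claudin of simple epithelia that also serves as a receptor for the enterotoxin of Clostridium perfringens. Its log2 intensity was 2.67, 3.48 and 3.59 in tumours, 7.23, 6.50 and 7.28 in T-3Mb-Erg HG-PIN, against 6.81, 5.34 and 6.52 in control HG-PIN. Every tumour value was below the receptor level and below every HG-PIN value of either genotype, whereas all HG-PIN values were above the receptor level. The fitted log2 change of tumour minus T-3Mb-Erg HG-PIN was -3.76 (SE 0.42, 95% interval -4.68 to -2.83), a 13.5-fold lower level, and its rank was 12 from the most negative of 16635 genes. Since the tumour values lie in the range of dim signal, the size of the fold is limited by that range.

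Within each T-3Mb-Erg mouse, the Cldn4 difference of tumour minus HG-PIN was -4.57, -3.02 and -3.69. Cldn4 passed an adjusted p of 0.05 in limma's fit over all genes (adjusted p = 0.00436). A fixed replicate block for the mouse gave 0.0121. The call ended without tumour replicate 1 (log2 change -3.49, adjusted p = 0.0710) and without replicate 1 of T-3Mb-Erg HG-PIN (-3.69, adjusted p = 0.0562), and the change stayed between -3.98 and -3.49 whichever array was left out. Over all tested genes, 0 were called without tumour replicate 1 and 5 without replicate 1 of T-3Mb-Erg HG-PIN, where the main fit called 47. Without the narrowest array of each group the Cldn4 change was -3.74. On the log2(value + 16) scale, which damps differences in dim signal, it was -2.49 (adjusted p = 0.0130 in limma).

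Cldn3 lies next to Cldn4 on chromosome 5 and encodes another barrier claudin with the same enterotoxin-binding property. Its log2 intensity was 5.58, 5.26 and 5.47 in tumours, 6.33, 6.12 and 6.01 in T-3Mb-Erg HG-PIN, against 5.67, 5.77 and 6.16 in control HG-PIN. All 9 values lay above the receptor level, and the tumours were the lowest of the 3 groups without overlap. The log2 change against T-3Mb-Erg HG-PIN was -0.72 (SE 0.28, 95% interval -1.33 to -0.10), with within-mouse differences of -0.75, -0.85 and -0.55. Cldn3 was not called (adjusted p = 0.527 in limma). Both neighbouring claudins were lower in tumour in 3 of 3 mice, as were 13.1% of all tested genes. The difference in size between their changes was not tested.

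Cldn7, a claudin that also lies along the basolateral membrane and binds Epcam, had log2 intensities of 4.24, 3.28 and 4.33 in tumours, 5.07, 5.52 and 5.16 in T-3Mb-Erg HG-PIN, against 5.65, 4.48 and 4.92 in control HG-PIN. Tumour values were all below the receptor level and below all HG-PIN values, and 5 of the 6 HG-PIN values were above that level. The log2 change against T-3Mb-Erg HG-PIN was -1.30 (SE 0.35, 95% interval -2.08 to -0.53, adjusted p = 0.239 in limma), and the differences within mice were -0.83, -2.24 and -0.84.

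The other claudins of the list were dimmer. Cldn1, a claudin that mouse epidermis needs for its water barrier, had log2 intensities of 4.59, 4.51 and 4.31 in tumours, 4.35, 4.56 and 4.70 in T-3Mb-Erg HG-PIN, against 4.53, 4.35 and 4.53 in control HG-PIN. The groups overlapped, no value reached the receptor level, and the log2 change against T-3Mb-Erg HG-PIN was -0.06 (95% interval -0.51 to 0.38). Cldn10, whose protein forms ion-selective channels between cells, was at 4.56, 4.44 and 4.56 in tumours, 5.01, 4.52 and 4.37 in T-3Mb-Erg HG-PIN, against 4.94, 4.14 and 4.57 in control HG-PIN, with a log2 change of -0.11 (95% interval -0.68 to 0.46). All Cldn1 values and 7 of the 9 Cldn10 values lay below the receptor level, in the range of dim signal. The part of dim signal in their flat levels was not tested.

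Cldn8, a claudin known from dog kidney cell cultures as a cation barrier, was at log2 intensities of 2.57, 2.90 and 2.27 in tumours, 3.78, 3.20 and 3.03 in T-3Mb-Erg HG-PIN, against 2.37, 2.50 and 4.55 in control HG-PIN. All of these values were below the receptor level. Tumour values were below those of T-3Mb-Erg HG-PIN without overlap, but they overlapped with control HG-PIN, where replicate 3 was the brightest of the 9 arrays. The fitted log2 change against T-3Mb-Erg HG-PIN, -0.76 (95% interval -1.80 to 0.29), comes without an adjusted p because the gene was below the filter.

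**Figure D1:**
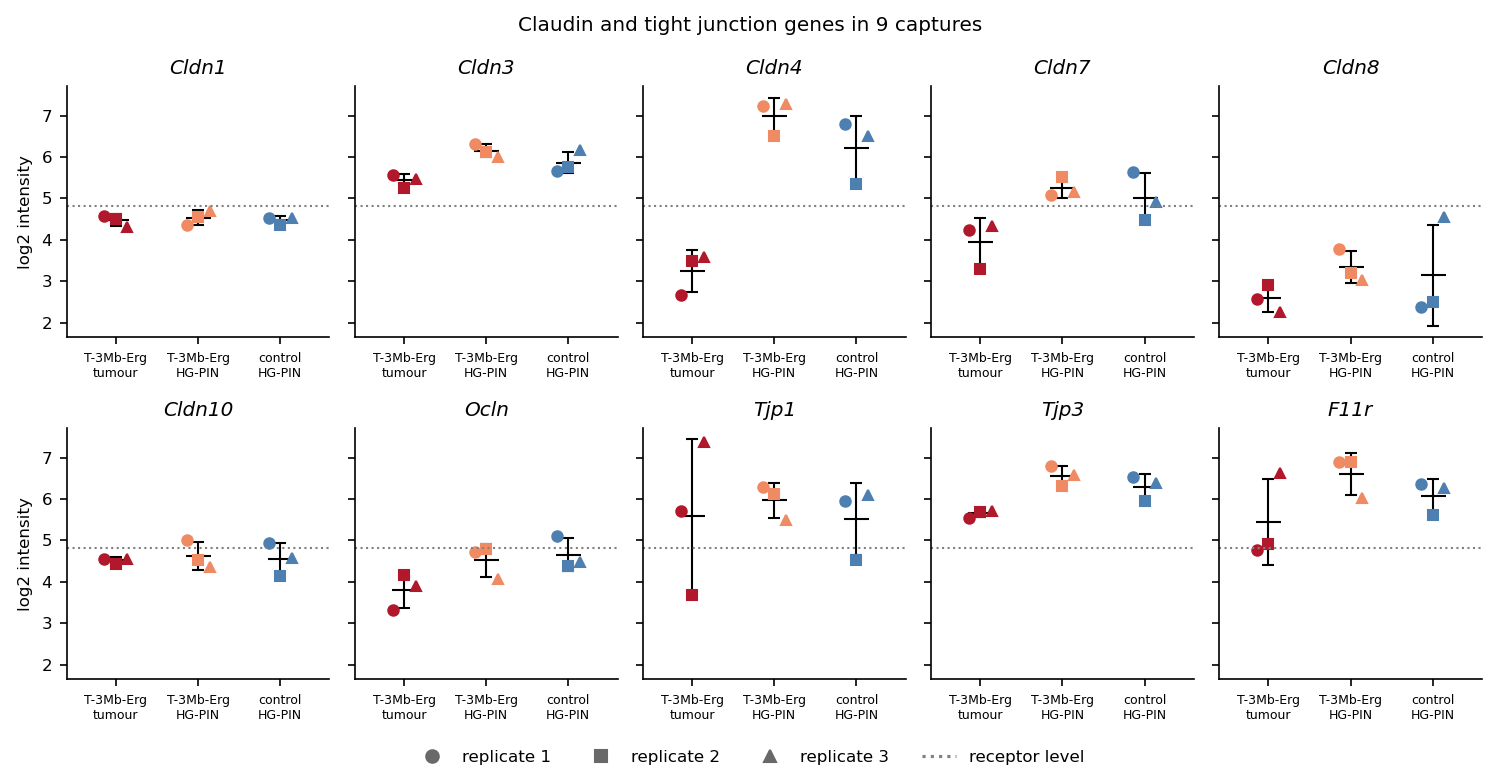
Log2 intensity (y axis) of the 10 genes in T-3Mb-Erg tumour, T-3Mb-Erg HG-PIN and control HG-PIN (x axis), 1 panel per gene; symbols are the 3 replicates, bars the mean ± SD (n = 3 arrays), and the dotted line the receptor level of 4.81. Cldn4 lies at 2.67 to 3.59 in tumours and at 5.34 to 7.28 in the 6 HG-PIN arrays, Cldn1 is level across the groups, and Tjp1 spans 3.68 to 7.38 within the tumours alone.

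Among the membrane partners of the claudins, occludin was lower in tumours with overlap. Ocln, a tetraspan protein of the junction strands, was at log2 intensities of 3.32, 4.17 and 3.90 in tumours, 4.71, 4.80 and 4.06 in T-3Mb-Erg HG-PIN, against 5.11, 4.38 and 4.48 in control HG-PIN. Tumour values were all below those of control HG-PIN, but tumour replicate 2 lay above T-3Mb-Erg HG-PIN replicate 3. Only control HG-PIN replicate 1 had a value above the receptor level, so dim signal limits the size of the Ocln change. The log2 change against T-3Mb-Erg HG-PIN was -0.73 (SE 0.30, 95% interval -1.38 to -0.07, adjusted p = 0.558 in limma), and the differences within mice were -1.39, -0.63 and -0.16.

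F11r, the junctional adhesion molecule JAM-A, an immunoglobulin-like receptor that takes part in junction assembly and leukocyte passage, had log2 intensities of 4.77, 4.92 and 6.64 in tumours, 6.89, 6.90 and 6.03 in T-3Mb-Erg HG-PIN, against 6.37, 5.62 and 6.26 in control HG-PIN. Tumour replicates 1 and 2 were the lowest of the 9 arrays, and tumour replicate 3 lay within the HG-PIN range. The log2 change was -1.17 (SE 0.49, 95% interval -2.25 to -0.09, adjusted p = 0.581 in limma) against T-3Mb-Erg HG-PIN. It was -1.85 without tumour replicate 3, where F11r passed the threshold (adjusted p = 0.0430). The difference within mice was -2.12 and -1.98 in the mice of replicates 1 and 2, and 0.60 in the mouse of replicate 3.

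Of the scaffold genes, Tjp3 was low in all tumours while Tjp1 varied between them. Tjp3, which encodes ZO-3, a PDZ scaffold of epithelial junctions, was at log2 intensities of 5.55, 5.69 and 5.72 in tumours, 6.81, 6.33 and 6.57 in T-3Mb-Erg HG-PIN, against 6.54, 5.97 and 6.40 in control HG-PIN. The tumours lay below both HG-PIN groups without overlap and within a range narrower than that of either. The log2 change against T-3Mb-Erg HG-PIN was -0.91 (SE 0.31, 95% interval -1.58 to -0.24, adjusted p = 0.409 in limma), with differences within mice of -1.26, -0.63 and -0.85.

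Tjp1 encodes ZO-1, a scaffold found also at junctions of endothelial cells and at cell contacts of fibroblasts. It was at log2 intensities of 5.72, 3.68 and 7.38 in tumours, 6.30, 6.13 and 5.50 in T-3Mb-Erg HG-PIN, against 5.95, 4.52 and 6.10 in control HG-PIN. The tumours held both the lowest and the highest of the 9 values, and the lowest value of control HG-PIN was again that of replicate 2. The log2 change against T-3Mb-Erg HG-PIN was -0.38 (95% interval -2.03 to 1.27), and it was -1.34 without tumour replicate 3 and 0.56 without tumour replicate 2, so the direction of Tjp1 rests on single arrays. Within mice the difference was -0.58, -2.45 and 1.88.

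The array that carried the highest Tjp1 and F11r of the tumours also had the highest stromal and seminal vesicle marker sums. Seminal vesicle markers summed to 44.0, 40.9 and 625 in tumour replicates 1, 2 and 3. Fibroblast markers summed to 1601, 552 and 3529 in tumour replicates 1, 2 and 3, smooth muscle markers to 223, 190 and 642, endothelial markers to 215, 194 and 444, and macrophage markers to 200, 218 and 437. In tumours, 8 of 12 fibroblast, 4 of 8 smooth muscle, 2 of 10 endothelial and 4 of 9 macrophage markers had a mean above the receptor level, and 0 of 6 lymphocyte markers did. Over the 9 arrays, the correlation with the 95th percentile of the array was 0.89 for Tjp1, 0.71 for Cldn10 and 0.52 for F11r, and 0.02 for Cldn4 (n = 9 arrays of 6 mice, as a description). The part of stromal markers, of seminal vesicle markers and of array range in the Tjp1 and F11r values was not tested.

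**Figure D2:**
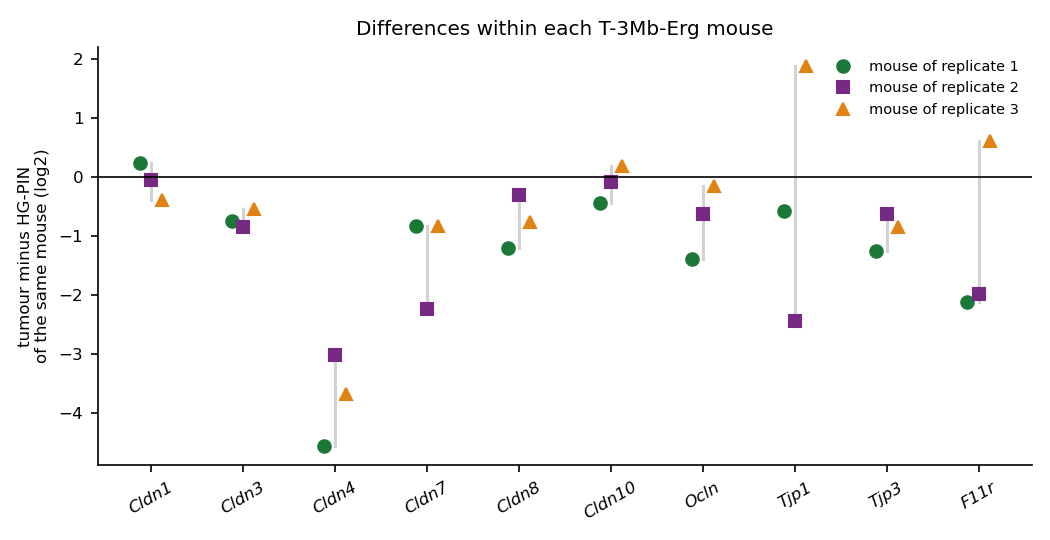
Difference in log2 intensity between tumour and HG-PIN within each T-3Mb-Erg mouse, tumour minus HG-PIN (y axis), for the 10 genes (x axis); symbols are the 3 mice and grey lines join the lowest and the highest. Cldn4 lies between -4.57 and -3.02 in the 3 mice, while F11r and Tjp1 are above 0 in the mouse of replicate 3 (0.60 and 1.88).

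All 9 tested tight junction genes averaged lower in tumours than in HG-PIN of the same mice. Their log2 changes had a median of -0.73, where 51.1% of all 16635 tested genes were negative and their median was -0.01. By mouse, 8, 9 and 6 of the 9 were lower in tumour, with medians of -0.83, -0.85 and -0.39, beside 49.8%, 48.1% and 55.5% of all tested genes. Of the 9, Cldn4 was called lower at an adjusted p under 0.05 in limma, where 0.216% of all genes were (36 of 16635). Groups did not overlap, with the tumours lower, for 4 of the 9 (Cldn3, Cldn4, Cldn7 and Tjp3), beside 6.43% of all genes, and 5 of the 9 were lower in 3 of 3 mice (these 4 and Ocln), beside 13.1%. Since the list was drawn up with this comparison in view, nothing is read from these counts. The other 8 genes had adjusted p values of 0.239 (Cldn7) to 0.995.

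**Figure D3:**
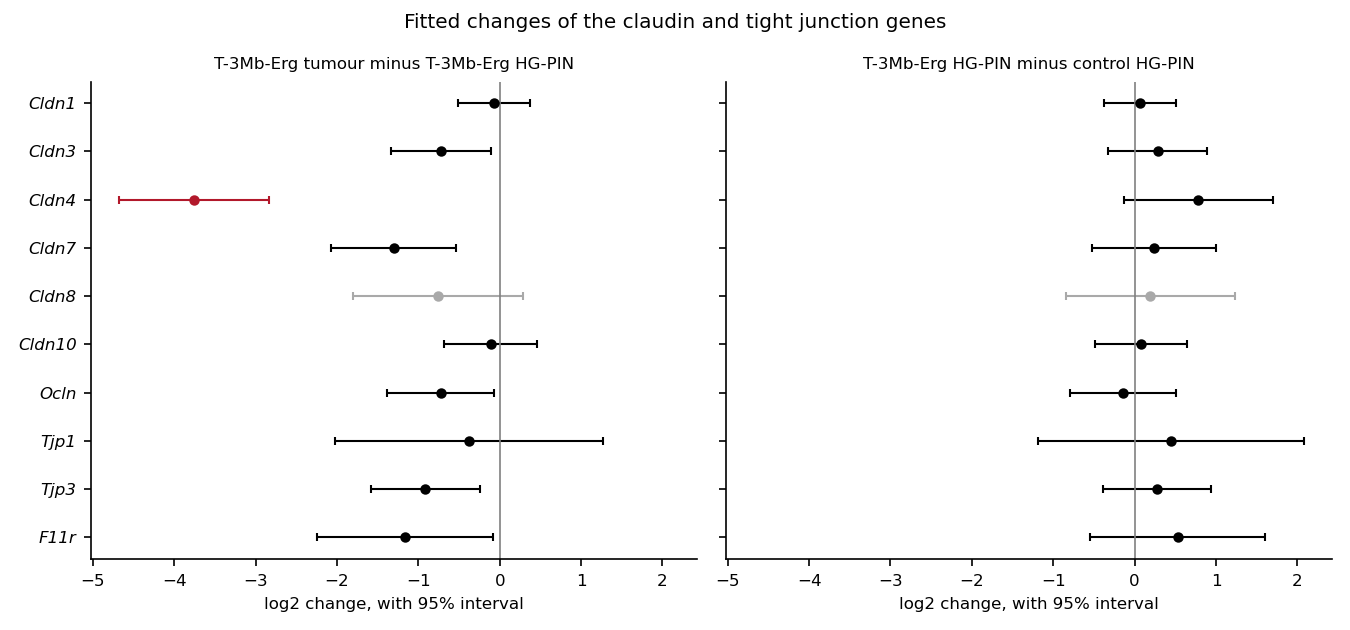
Fitted log2 change (x axis) with its 95% interval for each of the 10 genes (y axis), for T-3Mb-Erg tumour minus T-3Mb-Erg HG-PIN (left) and T-3Mb-Erg HG-PIN minus control HG-PIN (right); red marks an adjusted p under 0.05 and grey marks Cldn8, which was below the filter. On the left Cldn4 stands at -3.76 and the other tested genes between -1.30 and -0.06, and on the right all intervals cross 0.

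What the T-3Mb-Erg allele changes at the same lesion is addressed by comparing HG-PIN between the genotypes, in separate mice. No tight junction gene differed beyond the spread between mice. Cldn4 averaged 7.01 ± 0.44 in T-3Mb-Erg HG-PIN, against 6.22 ± 0.78 in control HG-PIN (log2 intensity, SD, n = 3 each), a log2 change of 0.78 (95% interval -0.13 to 1.70). Cldn3 averaged 6.15 ± 0.16 in T-3Mb-Erg HG-PIN, against 5.87 ± 0.26 in control HG-PIN, a change of 0.28 (95% interval -0.33 to 0.90). F11r averaged 6.61 ± 0.50 in T-3Mb-Erg HG-PIN, against 6.08 ± 0.40 in control HG-PIN, a change of 0.53 (95% interval -0.54 to 1.60), and Tjp1 averaged 5.97 ± 0.42 in T-3Mb-Erg HG-PIN, against 5.52 ± 0.87 in control HG-PIN, a change of 0.45 (95% interval -1.18 to 2.09). Without control HG-PIN replicate 2 these changes were 0.34 for Cldn4, 0.24 for Cldn3, 0.30 for F11r and -0.05 for Tjp1, and with replicate 3 of T-3Mb-Erg HG-PIN left out they were 0.99 for F11r and 0.96 for Tjp1.

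The remaining changes between HG-PIN of the 2 genotypes were smaller: 0.27 for Tjp3, 0.24 for Cldn7, 0.19 for Cldn8 (not tested), 0.08 for Cldn10, 0.07 for Cldn1 and -0.14 for Ocln. All 9 tested genes had an adjusted p of 0.998, the values of the groups overlapped for each of the 10 genes, and 10.1% of all tested genes had groups without overlap in either direction. limma called 0 of the 9 genes and 0 of all 16635 (0%), with 0 of the 9 and 304 higher and 378 lower of all at an unadjusted p under 0.05. The change was negative for 1 of the 9 (Ocln) and for 50.5% of all tested genes. The median was 0.27 for the 9 and 0.00 for all, and that of the 9 was 0.01 without control HG-PIN replicate 2, whose value was the lowest of the control arrays for 8 of the 9 genes, all but Cldn3. A p that misses the threshold does not show that the levels are alike: the interval of Cldn4 reaches 1.70, and that of Tjp1 reaches 2.09.

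Tumours of T-3Mb-Erg mice were also set against HG-PIN of control mice. This comparison uses the same tumour arrays as the first and the same control arrays as the second, so it is no separate evidence, and it joins lesion and genotype. Cldn4 was lower in tumours by the fit (log2 change -2.98, 95% interval -3.89 to -2.06, adjusted p = 0.0253 in limma), a 7.87-fold lower level. It lost the call when replicate 1 of control HG-PIN (-2.68, adjusted p = 0.149) or its replicate 3 (-2.83, 0.126) was left out, and likewise without tumour replicate 1 (-2.71, 0.111), tumour replicate 3 (-3.11, 0.0669) or replicate 3 of T-3Mb-Erg HG-PIN (-2.98, 0.0503). Over all tested genes, these fits called 1, 0, 3, 7 and 6 in that order, where the main fit called 30. On the log2(value + 16) scale the Cldn4 change was -1.84 (adjusted p = 0.0728), and 8 of all tested genes were called.

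The change of tumour minus control HG-PIN was -1.07 for Cldn7, -0.86 for Ocln, -0.64 for Tjp3, -0.64 for F11r and -0.43 for Cldn3, with adjusted p values between 0.303 and 0.788, and it was -0.56 for Cldn8, which was not tested. The F11r value was -0.33 without tumour replicate 1, -0.41 without tumour replicate 2 and -1.32 without tumour replicate 3, and that of Cldn3 was -0.29 without control HG-PIN replicate 3. Cldn10 (-0.03), Cldn1 (0.00) and Tjp1 (0.07) were near 0, and Tjp1 ran from -0.89 without tumour replicate 3 to 1.01 without tumour replicate 2. One of the 9 genes was called lower, beside 0.0721% of all tested genes (12 of 16635), and 5 of the 9 (Cldn3, Cldn4, Cldn7, Ocln and Tjp3) had tumours below control HG-PIN without overlap, beside 7.51%. As the tumour arrays were in view when the list was drawn up, these counts too are a description.

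Cldn3, Cldn4, Cldn7, Cldn8, Tjp3 and F11r averaged lowest in tumours, next in control HG-PIN and highest in T-3Mb-Erg HG-PIN, and Ocln averaged 3.80 in tumours, 4.52 in T-3Mb-Erg HG-PIN, against 4.66 in control HG-PIN. The 2 HG-PIN groups, neighbours in each of these orders, overlapped for each gene, and the tumours overlapped with at least 1 of them for Cldn8, Ocln and F11r. For Cldn1, Cldn10 and Tjp1 no pair of neighbours was separated beyond the spread of the arrays.

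The 10 genes did not vary as 1 block over the arrays. Cldn4 and Tjp3 were the most alike pair, with a Pearson correlation of 0.97 over the 9 arrays, followed by Cldn3 with Tjp3 (0.82) and Cldn7 with Cldn4 (0.82). Ocln was most like Cldn4 (0.76), F11r most like Cldn7 (0.73), Cldn8 most like Cldn3 (0.72), Tjp1 most like F11r (0.71) and Cldn10 most like Tjp3 (0.50). Cldn1 had no gene of the list above 0.21. These correlations run over 9 arrays of 3 groups from 6 mice and contain the differences between groups, so they are a description.

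**Figure D4:**
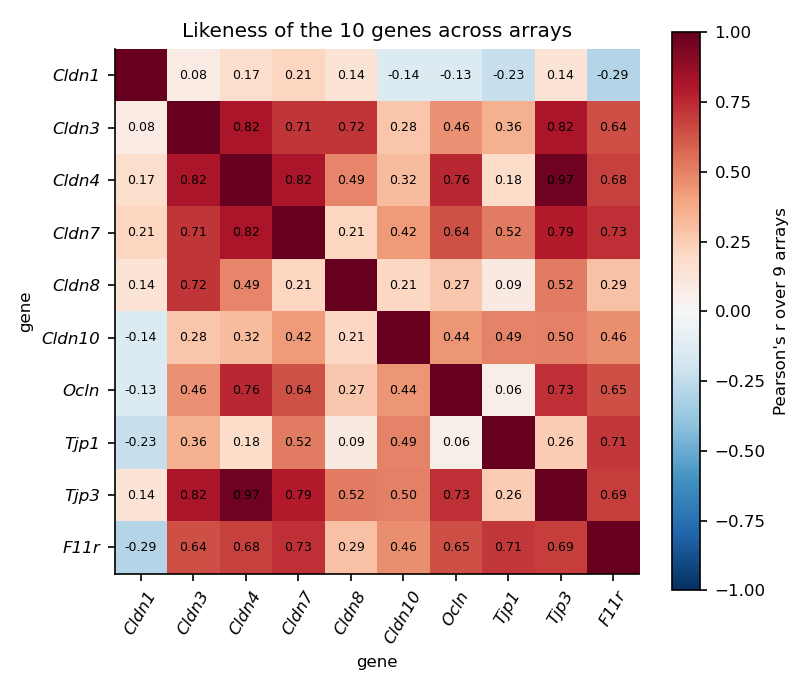
Pearson's r between the log2 intensities of each pair of the 10 genes (rows and columns) over the 9 arrays. Cldn3, Cldn4, Cldn7 and Tjp3 correlate with each other at 0.71 to 0.97, and the row of Cldn1 lies between -0.29 and 0.21.

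Of all other tested genes, those whose profile over the 9 arrays was most like the mean of the 9 tight junction genes were Gsta4 (0.98), Rnf141 (0.98), Slc12a2 (0.97), Atp1b1 (0.96), Ptpn3 (0.96), Ddx39b (0.96), Naip6 (0.96) and Epcam (0.96). Gsta4 encodes a glutathione transferase, Slc12a2 the basolateral sodium, potassium and chloride cotransporter, Atp1b1 a subunit of the sodium pump, Ptpn3 a tyrosine phosphatase and Ddx39b an RNA helicase. Their log2 change of tumour minus T-3Mb-Erg HG-PIN ran from -4.69 (Slc12a2) to -1.11 (Ptpn3). These genes were picked by their likeness to a mean profile that contains the differences between groups. Their correlations and the direction of their changes follow from that choice and are a description.

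Among the rest of the claudin family no gene passed the test in tumours. Of 29 other claudins listed, 26 had a named probe set and 18 were bright enough to be tested (Cldn25 and Cldn26 under the symbols Cldnd1 and Tmem114). In tumours minus T-3Mb-Erg HG-PIN, 13 of the 18 were negative and 5 positive, with a median of -0.07 and a range of -0.42 to 0.60. limma called 0, with 0 at an unadjusted p under 0.05, beside 3.98% lower and 3.67% higher of all tested genes. The smallest p values belonged to Cldn34b3 (log2 change 0.60, adjusted p = 0.841) and Cldn23 (-0.42, adjusted p = 0.867). In HG-PIN of T-3Mb-Erg mice minus control mice 0 were called and 2 were lower at an unadjusted p under 0.05, Cldn22 (-0.75) and Cldn20 (-0.66). At that threshold, 2.27% of all tested genes were lower. Only 3 of the 18 had a tumour mean above the receptor level, so dim signal limits what the family can show.

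Among other membrane proteins of the junction, Marveld3 had the lowest change. Of 9 tested, 5 were negative and 4 positive in tumours minus T-3Mb-Erg HG-PIN, with a median of -0.53. Marveld3, a tetraspan relative of occludin, was at log2 intensities of 4.29, 4.42 and 4.44 in tumours, 5.39, 5.45 and 5.30 in T-3Mb-Erg HG-PIN, against 5.30, 5.03 and 5.33 in control HG-PIN. Marveld3 values of tumours lay below both HG-PIN groups without overlap, with a log2 change of -0.995 against T-3Mb-Erg HG-PIN (adjusted p = 0.110). Ildr1, an angulin of the contacts where 3 cells meet, had a log2 change of -0.87 (adjusted p = 0.480). limma called 0 of the 9, with 3 lower and 0 higher at an unadjusted p under 0.05, beside 3.98% lower and 3.67% higher of all tested genes. In HG-PIN between genotypes 0 were called and 0 passed an unadjusted p under 0.05, and the smallest p values belonged to Jam2 (0.24) and Bves (-0.19).

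Scaffold and polarity proteins had a median near that of all genes. Of 26 tested, 15 were negative and 11 positive in tumours minus T-3Mb-Erg HG-PIN, with a median of -0.03. limma called 0, with 3 lower and 1 higher at an unadjusted p under 0.05, beside 3.98% lower and 3.67% higher of all tested genes. Arhgef2, a RhoA exchange factor held at junctions, had a log2 change of -0.57 (adjusted p = 0.584), and Patj, a PDZ protein of the Crumbs polarity complex, had -0.56 (adjusted p = 0.622). Between HG-PIN of T-3Mb-Erg and control mice 0 were called and 1 was higher at an unadjusted p under 0.05, beside 1.83% of all tested genes. The smallest p values were those of the polarity kinase Prkcz (0.56) and of Arhgef2 (0.48).

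Epcam, St14, Spint1 and Cdh1, genes that act beside the claudins at epithelial contacts, fell in tumours against T-3Mb-Erg HG-PIN. Of 5 tested genes of the claudin-7 partner and matriptase group, all 5 were negative, with a median of -1.69, and 3 were called lower by limma: Epcam, which binds and protects claudin-7 (log2 change -2.55, adjusted p = 0.0430), St14, the membrane protease matriptase, which cleaves Epcam (-1.88, adjusted p = 0.0366), and Spint1, its inhibitor (-1.69, adjusted p = 0.0436). Epcam was at log2 intensities of 3.84, 3.87 and 4.81 in tumours, 6.77, 6.85 and 6.55 in T-3Mb-Erg HG-PIN, against 7.12, 5.48 and 6.91 in control HG-PIN, with no overlap of tumours with either. Every tumour value of Spint1 lay below the receptor level, and 1 each of Epcam and St14 lay above it, so dim signal limits these changes. Spint2 (-1.49) and Prss8 (-0.54) were not called. Of 15 tested adherens junction and desmosome genes, 10 were negative, with a median of -0.28, and 1 was called lower, the cadherin Cdh1 (-2.88, adjusted p = 0.0424). The desmosomal cadherin Dsg2 (-1.49, adjusted p = 0.126) was not called. Over all tested genes, 0.216% were called lower (36 of 16635). These lists were chosen with earlier results known, so the counts are a description.

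Elf3 and Ehf fell among transcription factors known as activators of junction genes. Of 11 tested, 10 were negative, with a median of -0.34, and 2 were called lower: the epithelial ETS factors Elf3 (log2 change -2.91, adjusted p = 0.0154) and Ehf (-2.62, adjusted p = 0.0366). Over all tested genes, 0.216% were called lower, and this list too was chosen with earlier results known. Grhl2, a Grainyhead factor that activates Cldn4 in mouse epithelia, had a log2 change of -1.56 (adjusted p = 0.0590). Every tumour value of Elf3, Ehf and Grhl2 lay below the receptor level, so dim signal limits the size of their changes. Of 4 tested repressors 3 were positive, with a median of 0.34, and limma called 0. At an unadjusted p under 0.05, 1 was higher, beside 3.67% of all tested genes. Snai2 was at log2 intensities of 5.88, 5.02 and 6.49 in tumours, 4.55, 4.72 and 4.12 in T-3Mb-Erg HG-PIN, against 4.86, 5.10 and 4.35 in control HG-PIN, a log2 change of 1.33 against T-3Mb-Erg HG-PIN (adjusted p = 0.253), and Twist1 had 0.47 (adjusted p = 0.916).

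The calls of these partner and regulator genes depended on single arrays, on the block and on the scale. The calls of Epcam, St14, Spint1, Cdh1, Elf3 and Ehf all ended without tumour replicate 1 (adjusted p of 0.145 to 0.302), replicate 1 of T-3Mb-Erg HG-PIN (0.140 to 0.289) or its replicate 2 (0.111 to 0.261). Over all tested genes, these fits called 0, 5 and 8 in that order, where the main fit called 47. Those of Epcam, St14, Spint1, Cdh1 and Ehf also ended without control HG-PIN replicate 3 (0.0570 to 0.0810), those of Epcam, Spint1, Cdh1 and Ehf without tumour replicate 2 (0.0540 to 0.0805), and those of St14 and Spint1 without control HG-PIN replicate 1 (0.0520 and 0.0505). A fixed replicate block for the mouse gave adjusted p values of 0.0555 for Epcam, 0.105 for St14, 0.109 for Spint1, 0.0682 for Cdh1 and 0.0676 for Ehf. On the log2(value + 16) scale the calls of Epcam, Cdh1 and Ehf (adjusted p = 0.0821 each) and of St14 and Spint1 (0.0634 each) ended, and with only the 6 arrays compared so did those of St14 (0.0609) and Spint1 (0.0607). In the other direction, Grhl2 was called with quantile normalization (0.0399), array weights (0.0184) and a term for array range (0.0282), and Snai2 with array weights (0.0280). Between HG-PIN of T-3Mb-Erg and control mice 0 genes were called in each of these 4 lists, with 0 of the claudin-7 partners, 1 lower of the adherens and desmosome genes, 1 higher of the activators and 0 of the repressors at an unadjusted p under 0.05. At that threshold, 1.83% of all tested genes were higher and 2.27% lower. The smallest p values there were those of Spint1 (0.53) and St14 (0.42), Pkp2 (-0.61) and Dsg2 (0.70), Elf3 (1.20) and Ovol1 (-0.46), and Snai1 (0.38) and Zeb1 (0.34).

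**Figure D5:**
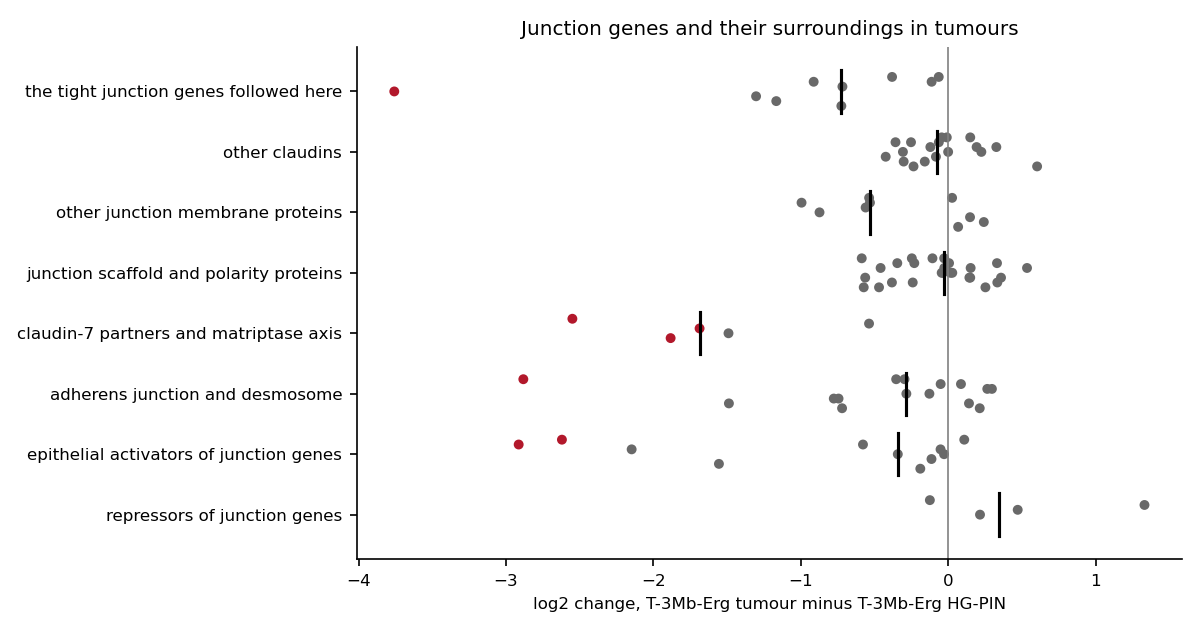
Log2 change of T-3Mb-Erg tumour minus T-3Mb-Erg HG-PIN (x axis) of each tested gene in 8 lists (y axis); points are genes, red points have an adjusted p under 0.05, and black bars are list medians. The tight junction genes followed here have a median of -0.73, the other claudins -0.07, the scaffold and polarity proteins -0.03 and the claudin-7 partners -1.69.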

How the data were processed

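The authors deposited 1 intensity value on a linear scale per probe set and array, for 41345 probe sets, between 1.36 and 13922. Per the labels' protocols, RNA of laser-captured, formalin-fixed tissue was amplified with a NuGEN system before hybridisation, which can lower signal and widen the spread between arrays. How they corrected background, summarised probes and normalized arrays is not given in the sources used here. Gene symbols came from GEO's platform annotation, brought up to date by Entrez identifier with RefSeq genes of GRCm38.p6: 23521 list exactly 1 symbol (23328 matched), 1814 list several and 16010 none. The promoter sequences are RefSeq's, on GRCm38.p6.

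Intensities were log2-transformed without a pseudocount, the brightest probe set was kept for each of 22180 symbols, and genes with a mean log2 under 3.25 were left out. A model of group means over all 9 arrays was fitted in R 4.3.3 (limma 3.58.1), with the mouse as a random block (consensus correlation -0.01), a mean trend, and Benjamini-Hochberg adjustment over 16635 genes, called at an adjusted p under 0.05. The tumour and HG-PIN arrays of the T-3Mb-Erg genotype are paired by the mouse named in the labels. Deviations of the same mouse from the group means correlated at 0.17, 0.10 and -0.30. Those of different mice ran from -0.40 to 0.36, so arrays of the same mouse were no more alike and the pairing rests on the labels. The members and lists were chosen with earlier results of these data known. Named genes are the 10 members, the called genes of each other list (up to 4, by size) or else its 2 smallest p values, the 8 genes most like the members' mean profile, and each member's closest member. Grhl2, Dsg2, Spint2 and Prss8 in tumours, which were not called, were named beside them after their values were seen. Alternatives changed the normalization, the pseudocount, the filter, the probe set rule, the block, the trend, the arrays used and their weights.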

Additional observations from a re-analysis of the deposited data

How the results depend on the processing

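The direction of Cldn3, Cldn4, Cldn7, Ocln, Tjp3 and F11r in tumours against T-3Mb-Erg HG-PIN held under every alternative run, while those of Cldn1, Cldn10 and Tjp1 changed sign under some. With a fixed replicate block for the mouse, 26 genes were called where the fit with a random block called 47, Cldn4 among both. The calls of Epcam, St14, Spint1, Cdh1 and Ehf ended. No call changed among the tight junction genes followed here, the other claudin, membrane and scaffold genes, or Elf3, Grhl2 and Snai2. Other named genes, such as Slc12a2, Atp1b1 and Tmprss2, were not followed under this alternative. The number of genes called in tumours against T-3Mb-Erg HG-PIN was 81 with quantile normalization, 18 with log2(value + 16), 405 with array weights, 194 with the arrays' range as a term, 182 when the narrowest array of each group was left out, and 0 to 110 with 1 array left out. Against control HG-PIN, 30 genes were called in tumours, and 88, 8, 938, 196 and 260 under these alternatives in that order, 47 with only genes above the receptor level, 7 with only the 6 arrays compared, and 0 to 261 with 1 array left out. Between HG-PIN of the genotypes the count of 0 became 4 with only 6 arrays, 9 with array weights, 7 with the range term, 4 without the narrowest arrays, and 0 to 6 with 1 array left out.

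Of the 9 members, 0 to 2 were called in tumours against T-3Mb-Erg HG-PIN with 1 array left out. Against control HG-PIN it was 0 with log2(value + 16), 0 with only the 6 arrays compared, 2 with array weights (Cldn4 and Ocln), and 0 to 1 with 1 array left out. Of 53 other claudin, membrane and scaffold genes, tumours against T-3Mb-Erg HG-PIN gave 1 with only genes above the receptor level (Marveld3), 2 with array weights (Marveld3 and Ildr1) and 1 with the range term (Marveld3), where the main count was 0, and tumours against control HG-PIN gave 5 with array weights and 0 to 1 with 1 array left out. The causes were not tested. The fit without the narrowest arrays had no random block, since too few pairs remained to estimate it. Tumour levels of Cldn4, Cldn7 and Ocln, and of Elf3, Ehf, Grhl2 and Spint1, lie in the range of dim signal, which limits their fold changes.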

Other observations

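Cldn4 and Cldn3 are next to each other on mouse chromosome 5 in the RefSeq gene order, and the genes around them were read in the same fit. In tumours minus T-3Mb-Erg HG-PIN, Mettl27 had a log2 change of -0.40, Cldn13 -0.12 and Tmem270 -0.23 on the side of Cldn4, and Abhd11 had -0.47 and Stx1a -0.13 on the side of Cldn3. None of these 5 neighbours was called (adjusted p of 0.758 to 0.995 in limma), and neither was Cldn3 (-0.72, adjusted p = 0.527), whereas Cldn4 was (-3.76). The neighbours were chosen after the values of Cldn4 were seen. Tmprss2, the gene at the other end of the engineered deletion from Erg, was at log2 intensities of 4.45, 4.63 and 5.13 in tumours, 6.50, 6.34 and 6.66 in T-3Mb-Erg HG-PIN, against 6.37, 4.95 and 6.59 in control HG-PIN.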
